A study of Homo sapiens with 12 samples.

Results

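The immunoglobulin locus genes are the constant, variable, diversity and joining gene segments of the heavy chain locus on chromosome 14, the kappa light chain locus on chromosome 2 and the lambda light chain locus on chromosome 22. They were chosen by the gene biotype and chromosome given in the deposited gene table, which took 191 of its 60675 genes. RNA was sequenced from U-2932, a human cell line of diffuse large B cell lymphoma (spelled DLBLC in the labels), grown in RPMI with 10% FBS. All cells stably expressed Roquin2, an RNA-binding protein of mRNA decay encoded by RC3H2, either as Roquin2(WT) or as Roquin2(Y691F), a form named for a tyrosine-to-phenylalanine change, and no parental cells without an added Roquin2 were analysed here. The 4 groups of 3 libraries were WT untreated, WT with F(ab')2-IgM, Y691F untreated and Y691F with F(ab')2-IgM. The reagent, called IgM from here on, is an antibody fragment that engages the B cell receptor, and was given for 12 h at 10 µg/ml. The labels do not say whether each Roquin2 form stood for 1 clone or for several lines. The questions were which segments carry reads, how they changed with IgM, and whether they differed between the Roquin2 forms.

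In a developing B cell, recombination joins a variable, a diversity and a joining segment of the heavy chain locus, and a variable and a joining segment of a light chain locus, and splicing attaches the joined exon to a constant region. A clonal B cell line therefore usually makes a single heavy and a single light chain, and its surface immunoglobulin is the antigen-binding part of the B cell receptor. The heavy chain isotypes are coded by IGHM (IgM), IGHD (IgD), IGHG (IgG), IGHA (IgA) and IGHE (IgE), and constant and variable segments that were not rearranged can be transcribed from promoters of their own as germline transcripts.

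The segments are close copies of one another, so a read of one can be counted on another. The windows below show this for the segments with the most reads: each is the reference sequence of the last 90 coding bases up to the codon of the conserved cysteine that ends the third framework region (GENCODE release 29 models on GRCh38, printed 5′ to 3′ in the sense of the gene). Capitals mark bases that differ from the segment with the most reads, which is IGHV4-39 for the heavy chain and IGKV3-20 for the kappa chain.
IGHV4-39, chr14:106421717-106421806, minus strand: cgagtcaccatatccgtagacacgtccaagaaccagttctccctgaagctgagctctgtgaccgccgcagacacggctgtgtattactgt
IGHV4-59, chr14:106627257-106627346, minus strand: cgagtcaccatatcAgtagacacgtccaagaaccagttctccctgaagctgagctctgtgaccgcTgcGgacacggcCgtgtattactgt
IGHV4-28, chr14:106324262-106324351, minus strand: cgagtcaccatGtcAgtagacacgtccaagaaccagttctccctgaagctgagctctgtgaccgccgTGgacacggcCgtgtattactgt
IGHV4-61, chr14:106639127-106639216, minus strand: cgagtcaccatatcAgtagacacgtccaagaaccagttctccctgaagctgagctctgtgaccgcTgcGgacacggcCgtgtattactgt
IGHV1-69, chr14:106714690-106714779, minus strand: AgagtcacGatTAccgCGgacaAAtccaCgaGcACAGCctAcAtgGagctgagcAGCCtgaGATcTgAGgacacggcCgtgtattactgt
IGKV3-20, chr2:89142595-89142684, minus strand: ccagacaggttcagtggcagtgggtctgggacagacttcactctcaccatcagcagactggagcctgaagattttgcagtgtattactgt
IGKV3D-20, chr2:90039369-90039458, plus strand: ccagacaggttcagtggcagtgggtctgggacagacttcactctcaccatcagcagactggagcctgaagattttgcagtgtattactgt
IGKV3D-11, chr2:90173302-90173391, plus strand: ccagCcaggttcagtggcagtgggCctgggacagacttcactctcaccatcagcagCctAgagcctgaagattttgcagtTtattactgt
IGKV3D-15, chr2:90115290-90115379, plus strand: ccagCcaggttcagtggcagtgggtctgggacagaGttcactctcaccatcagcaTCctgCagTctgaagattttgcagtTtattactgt
IGKV3-7, chr2:88978489-88978578, minus strand: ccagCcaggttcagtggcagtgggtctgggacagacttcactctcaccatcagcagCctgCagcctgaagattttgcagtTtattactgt
IGKV4-1, chr2:88886043-88886132, plus strand: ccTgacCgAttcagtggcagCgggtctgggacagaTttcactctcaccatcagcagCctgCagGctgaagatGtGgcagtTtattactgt
IGHV4-59 and IGHV4-61 each differed from IGHV4-39 at 4 of the 90 bases, IGHV4-28 at 5 and IGHV1-69, of another family, at 29. The window of IGKV3D-20, on the opposite arm of the kappa locus, differed from that of IGKV3-20 at 0 bases. IGKV3-7 differed at 4 bases, IGKV3D-11 at 5, IGKV3D-15 at 7 and IGKV4-1 at 11.

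Joining segments share their 3′ ends, as the reference sequences of the 4 tested heavy chain segments show. Here capitals mark bases that differ from IGHJ5, or that extend beyond its 5′ end, with the segments lined up at their 3′ ends.
IGHJ5, chr14:105863814-105863862, minus strand: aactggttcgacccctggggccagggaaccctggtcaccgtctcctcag
IGHJ4, chr14:105864215-105864260, minus strand: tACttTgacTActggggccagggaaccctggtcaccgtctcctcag
IGHJ3, chr14:105864587-105864635, minus strand: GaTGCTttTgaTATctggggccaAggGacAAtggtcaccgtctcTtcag
IGHJ6, chr14:105863198-105863258, minus strand: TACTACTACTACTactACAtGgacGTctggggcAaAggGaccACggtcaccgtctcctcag
The kappa joining segments are compared with IGKJ1 in the same way, since IGKJ1 took nearly all reads of its class.
IGKJ1, chr2:88861886-88861923, minus strand: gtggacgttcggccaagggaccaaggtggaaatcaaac
IGKJ2, chr2:88861525-88861563, minus strand: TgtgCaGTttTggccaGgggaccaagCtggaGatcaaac
IGKJ3, chr2:88861221-88861258, minus strand: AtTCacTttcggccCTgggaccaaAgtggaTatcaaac
IGKJ3 differed from IGKJ1 at 8 aligned bases and had 18 reads in all. IGKJ2 differed at 7 and had no read. IGHJ4 differed from IGHJ5 at 5 aligned bases, IGHJ6 at 12 and IGHJ3 at 14.

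The libraries held 16465393 to 21478790 counts, of which 1.25% to 1.96% fell on the 191 members. Levels are given as CPM, counts scaled to a common library size with TMM factors, and as mean ± SD over n = 3 libraries. Differences are log2 values with a standard error (SE), from edgeR's quasi-likelihood test over all 15112 tested genes. A gene is called at a Benjamini-Hochberg adjusted p under 0.05. RC3H2, which encodes the protein that was expressed, stood at 110.4 ± 1.08 CPM in WT untreated, 121 ± 1.80 in WT with IgM, 208 ± 0.88 in Y691F untreated and 206 ± 1.79 in Y691F with IgM. Its counts cannot tell the forms or the added from the endogenous gene apart, and both Y691F groups lay above both WT groups.

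Reads were found on 122 of the 191 members, and 69 had none in any library. After the filter on low counts 52 were tested: 8 constant, 4 joining and 12 variable genes of the heavy chain, 1, 1 and 17 of the kappa chain, and 3 constant and 6 variable genes of the lambda chain. IGHM (chr14:105854220-105856218 on GRCh38, minus strand) alone took 60.8% of all reads on the members and 99.3% of those on heavy chain constant genes. The 27 diversity segments held 1 read between them, on IGHD2-15. Heavy chain variable reads were 93.1% on IGHV4-39 (chr14:106421711-106422218), and kappa variable reads were 77.9% on IGKV3-20 (chr2:89142574-89143160).

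Per length, on the deposited RPKM scale, the levels in WT untreated were 5649.9 ± 151 for IGHM, 2319.8 ± 42.8 for IGHV4-39, 1634 ± 109 for IGHJ5, 1635 ± 19.0 for IGKC, 2409 ± 45.9 for IGKV3-20 and 2253 ± 101 for IGKJ1. The other constant genes were far below on that scale: IGHG3 stood at 23.1 ± 0.839, IGLC2 at 23.3 ± 4.07, IGHD at 10.9 ± 0.0654 and IGHA1 at 2.27 ± 0.483. Levels of IGKC and of 4 variable genes, IGKV1-12, IGKV1-8, IGKV3D-11 and IGHV3-49, rest on gene models that reach across neighbouring segments. The deposited model of IGKC spans 189305 bases against 523 in GENCODE 29, and 49 members overlapped another gene model.

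Of the reads on light chain constant members, nearly all were kappa. The kappa share of IGKC, IGLC1, IGLC2, IGLC3 and IGLC7 counts was 99.2%, 99.4% and 99.3% in WT untreated and 99.8%, 99.8% and 99.7% in WT with IgM. It was 99.5%, 99.5% and 99.4% in Y691F untreated and 99.8%, 99.8% and 99.8% in Y691F with IgM. IGLC2 held 2033 reads over all libraries, IGLC3 599 and IGLC7 112, while IGLC1 had none. The model of IGLC1 overlaps that of IGLL5, a gene of the lambda locus that is no member and stood at 206 ± 2.46 CPM in WT untreated and 66.0 ± 3.73 in WT with IgM. With IgM the kappa share was higher by 0.456 percentage points in WT and 0.355 in Y691F, each with an exact 2-sided permutation p of 0.1, the smallest that 3 against 3 libraries allow. With IGLL5 and the constant pseudogenes counted as lambda, the change was 5.29 points in WT and 3.75 in Y691F. Both the level of the kappa share and the size of its change therefore rest on whether IGLL5 is counted. IGLL5 held 31244 reads over all libraries, against 2744 on the lambda constant members.

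Among variable segments, the highest counts after the leading segments fell on their close copies. All 6 heavy chain segments that were 90% to 100% identical to IGHV4-39 over their aligned coding bases had reads, from 66 to 6462 each. Of the 41 segments under 80% identity, 22 had reads, and the highest was IGHV1-69 with 1334. For the kappa chain, all 8 segments at 90% to 100% identity to IGKV3-20 had reads, from 200 to 41030. Of the 37 below 80%, 35 had reads, and the highest was IGKV5-2 with 1293. IGKV3D-20 was 98.6% identical to IGKV3-20, shared an unbroken run of 136 bases with it and had 14.1% of its reads. How many reads of these close copies came from the leading segment was not tested, and their counts are uncertain.

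**Figure D1:**
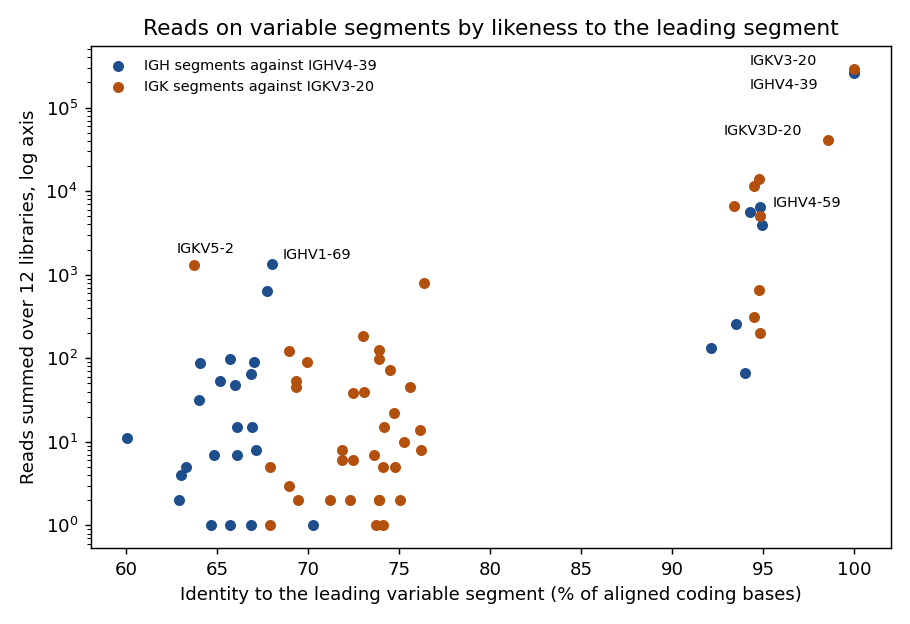
Reads on each variable segment with at least 1 read, summed over 12 libraries (log axis), against its identity to IGHV4-39 (heavy chain) or IGKV3-20 (kappa chain) in percent of aligned coding bases. Each point is a segment: those at 90% to 100% identity reach 41030 reads for the kappa chain and 6462 for the heavy chain, and those under 80% reach 1293 and 1334.

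With IgM the heavy chain constant genes went different ways: IgM and IgD constant counts fell by under 1 log2 unit, IgG constant counts fell by more than 1 log2 unit, and IgA constant counts rose. In WT 38 of the 52 tested members were lower, beside 38.5% of all 15112 tested genes, and 3 were higher, beside 38.4%. In Y691F 36 were lower, beside 38.7%, and 2 were higher, beside 37.1%. The median log2 change of the tested members was -1.08 in WT and -1.26 in Y691F, beside 0.0016 and -0.011 over all tested genes. These counts and the medians of the tested members depend on the filter, which asks for about 10 reads in 3 libraries. Of the 52, 20 reached it only in untreated libraries and 0 only with IgM, so those 20 could hardly be other than lower. The medians include those 20 and were not computed without them. Of the 32 that reached the filter's minimum with IgM, 21 were lower and 3 higher in WT, and 18 and 2 in Y691F. In RNA from whole cultures, fewer cells of a kind and less RNA per cell cannot be told apart. The scaling matters for small changes: with library totals in place of TMM, the median of all genes shifts by -0.13 in WT and -0.17 in Y691F.

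IGHM, the constant gene of IgM, stood at 10242, 9638 and 9650.4 CPM in WT untreated, 8140.4, 7997 and 8095 CPM in WT with IgM, 11218, 11398 and 10788 CPM in Y691F untreated and 9058, 8758 and 9134 CPM in Y691F with IgM. Both IgM groups lay below both untreated groups in every library. The change was -0.29 (SE 0.03, adjusted p = 1.07e-15) in WT and -0.31 (SE 0.03, adjusted p = 2.37e-17) in Y691F. IGHD lies next to IGHM and is made from the same primary transcript by alternative processing. It stood at 22, 21.9 and 21.9 CPM in WT untreated, 14.4, 15.8 and 13.1 CPM in WT with IgM, 7.58, 8.17 and 7.75 CPM in Y691F untreated and 5.16, 6.27 and 5.95 CPM in Y691F with IgM, lower with IgM in all libraries of a form. It fell by 0.60 in WT and by 0.43 in Y691F on the log2 scale (adjusted p = 1.67e-11 and 2.50e-04).

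The IgG constant genes fell together. IGHG3, coding for the IgG3 constant region, stood at 36.1, 33.3 and 33.6 CPM in WT untreated, 7.12, 5.61 and 6.69 CPM in WT with IgM, 42.1, 43.9 and 41.1 CPM in Y691F untreated and 5.16, 4.88 and 4.75 CPM in Y691F with IgM. No library with IgM came near an untreated one. It fell 5.33-fold in WT and 8.56-fold in Y691F, a log2 change of -2.41 (SE 0.08, adjusted p = 9.07e-45) and -3.10 (SE 0.08, adjusted p = 2.55e-52). IGHG1 (IgG1) stood at 15.8, 16.1 and 15.7 CPM in WT untreated, 6.46, 5.77 and 5.67 CPM in WT with IgM, 11.9, 11.0 and 11.6 CPM in Y691F untreated and 2.5, 1.88 and 2.41 CPM in Y691F with IgM, and again the IgM and untreated libraries of a form did not overlap. Its log2 change was -1.41 (SE 0.09, adjusted p = 3.35e-24) in WT and -2.35 (SE 0.12, adjusted p = 1.37e-30) in Y691F. IGHG4 (IgG4) and IGHG2 (IgG2) had lower counts, and changed by -2.01 and -2.26 in WT and by -3.02 and -3.10 in Y691F. IGHG2 passed the filter only through untreated libraries, so its direction was set by the choice of tested genes. Since the 4 IGHG genes are near-copies that can share reads, their counts were also summed: the sum went from 58.6 ± 1.32 to 14.4 ± 1.44 CPM in WT and from 64.0 ± 2.20 to 8.42 ± 0.529 CPM in Y691F. This was a log2 change of -2.02 (SE 0.06, adjusted p = 1.34e-47) in WT and -2.93 (SE 0.07, adjusted p = 1.71e-56) in Y691F.

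The IgA constant genes rose. IGHA1 stood at 3.65, 2.36 and 2.87 CPM in WT untreated, 14.5, 14.6 and 15.2 CPM in WT with IgM, 7.17, 6.57 and 6.34 CPM in Y691F untreated and 22.2, 22.8 and 22.7 CPM in Y691F with IgM. Every library with IgM exceeded every untreated library. The rise was 5.04-fold in WT and 3.36-fold in Y691F, a log2 change of 2.33 (SE 0.11, adjusted p = 3.16e-33) and 1.75 (SE 0.09, adjusted p = 8.36e-33). IGHA2, its near-copy, stood at 0.529, 0.400 and 0.401 CPM in WT untreated, 2.15, 1.73 and 1.59 CPM in WT with IgM, 0.827, 0.776 and 0.855 CPM in Y691F untreated and 4.28, 3.27 and 3.42 CPM in Y691F with IgM, with the same separation. IGHA2 changed by 2.03 (SE 0.29, adjusted p = 1.63e-09) in WT and 2.15 (SE 0.21, adjusted p = 1.24e-15) in Y691F. The sum of both rose from 3.40 ± 0.724 to 16.6 ± 0.275 CPM in WT and from 7.52 ± 0.431 to 26.2 ± 0.202 CPM in Y691F, which left IgA constant counts far below those of IGHM. IGHE, the constant gene of IgE, had 4 reads over all libraries and was not tested.

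The deposited models of IGHM, IGHG2, IGHG3, IGHG4, IGHA1, IGHA2 and IGHE stop short of the GENCODE 29 models on their 3′ side, where the exons of the membrane-bound form lie. For IGHM the deposited model spans 1999 bases against 4514, while those of IGHD and IGHG1 span the same bases in both. The labels do not say whether reads were counted over these spans.

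**Figure D2:**
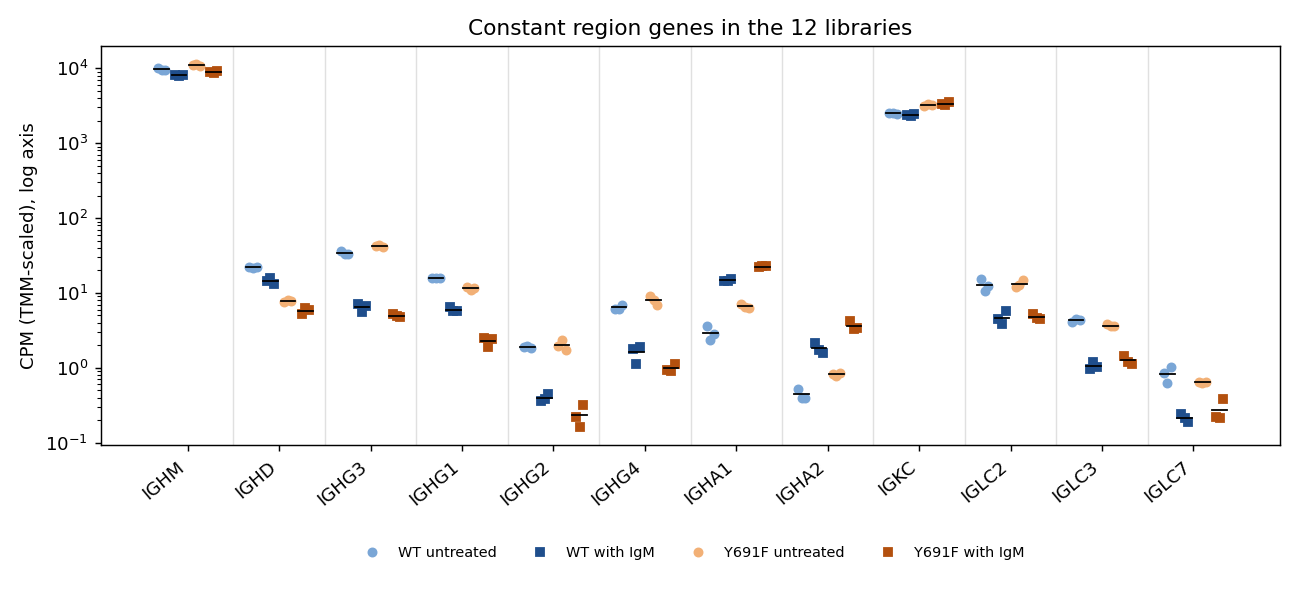
Level of each constant gene in CPM (log axis) in the 12 libraries, by group, with each point a library and each bar the group mean. IGHM and IGKC stay near the top in all 4 groups, the IGHG genes lie lower with IgM (IGHG3 at 6.47 against 34.4 CPM in WT) and the IGHA genes higher (IGHA1 at 14.8 against 2.96 CPM in WT).

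The leading variable and joining segments changed little with IgM. IGHV4-39 stood at 1189.6, 1151 and 1129.7 CPM in WT untreated, 988, 985 and 977 CPM in WT with IgM, 1339, 1372 and 1321 CPM in Y691F untreated and 1109, 1093 and 1145 CPM in Y691F with IgM, below the untreated libraries of the same form throughout. It fell by 0.23 in WT and by 0.27 in Y691F on the log2 scale (adjusted p = 1.04e-12 and 2.93e-15), close to IGHM. IGHJ5, the leading heavy chain joining segment, changed by -0.17 in WT, or -0.11 without the first WT untreated library, and by -0.30 in Y691F. IGHJ4 changed by -0.33 and -0.23. IGHJ3 fell by more: it went from 60.1 ± 5.13 to 37.4 ± 1.48 CPM in WT, -0.68 (SE 0.05, adjusted p = 1.03e-20), and from 67.1 ± 2.79 to 40.4 ± 2.11 CPM in Y691F, -0.73 (SE 0.05, adjusted p = 3.43e-23). The difference between the changes of these segments was not tested. IGHJ6 was called higher in WT, 0.64 (SE 0.20, adjusted p = 0.00338), although its libraries overlapped at 2.49, 1.42 and 1.32 CPM untreated and 2.99, 3.07 and 1.97 CPM with IgM. Without the first untreated WT library the change was 0.97.

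The kappa constant gene and the leading kappa segments moved by less than 0.1 on the log2 scale with IgM under TMM scaling. IGKC, the kappa constant gene, stood at 2568, 2496 and 2473 CPM in WT untreated, 2393, 2322 and 2425 CPM in WT with IgM, 3125, 3359.7 and 3242 CPM in Y691F untreated and 3391, 3204 and 3537 CPM in Y691F with IgM. In WT the IgM libraries lay just below the untreated ones, and in Y691F both overlapped. Its log2 change was -0.08 (SE 0.03, adjusted p = 0.0121) in WT and 0.06 (SE 0.03, adjusted p = 0.0579) in Y691F. With library totals as the scaling the Y691F value turned to -0.11, and it was called at 0.066 with DESeq2 size factors. The WT call was lost with limma-voom (adjusted p = 0.0876), without the first WT untreated library and without the second WT library with IgM. IGKV3-20 stood at 1166, 1114 and 1111 CPM in WT untreated, 1102, 1112 and 1106 CPM in WT with IgM, 1510.3, 1495 and 1455 CPM in Y691F untreated and 1428, 1569.6 and 1465 CPM in Y691F with IgM, and the IgM and untreated libraries of each form overlapped. Its change was -0.03 (SE 0.03, adjusted p = 0.323) in WT and 0.00 (SE 0.03, adjusted p = 0.988) in Y691F, with -0.17 in Y691F by library totals. In WT it was called lower by library totals (-0.16, adjusted p = 1.35e-07) and with the 5 CPM filter (-0.073, adjusted p = 0.0152). IGKJ1 changed by -0.02 (SE 0.04, adjusted p = 0.735) and 0.03 (SE 0.04, adjusted p = 0.457), with -0.15 in WT and -0.14 in Y691F by library totals, both called.

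Several close copies of IGKV3-20 moved as little. IGKV3D-20, IGKV3D-11 and IGKV3D-15 were not called with IgM in either form, and their changes ran from -0.10 to 0.07; with library totals their Y691F values were -0.16, -0.097 and -0.13 and their WT values -0.14, -0.11 and -0.23, all called. IGKV3D-15 was also called in WT with the 5 CPM filter (-0.14, adjusted p = 0.0168) and without the first WT library with IgM (-0.15, adjusted p = 0.0233). IGKV3-7 changed by -0.14 (SE 0.06, adjusted p = 0.0277) in WT, a call lost without the second or the third library of either WT group and with the DESeq2 Wald test (adjusted p = 0.0532), and by 0.05 in Y691F, or -0.12 by library totals. IGKV3D-7 fell in WT, by 0.42 (adjusted p = 3.44e-07), and was at -0.11 (SE 0.07, adjusted p = 0.123) in Y691F. IGKV3OR2-268, a copy with few reads, was called lower in Y691F at -1.39, from 30, 24 and 20 to 8, 8 and 8 reads. It passed the filter only through untreated libraries, so its direction was set by the choice of tested genes.

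**Figure D3:**
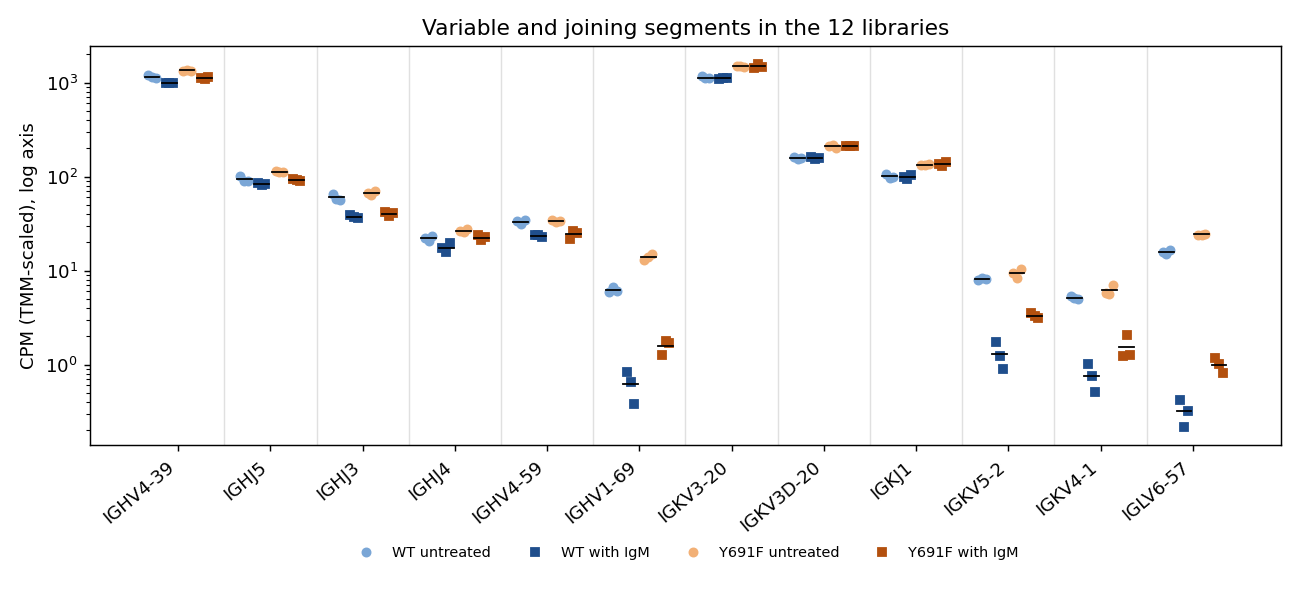
Level of selected variable and joining segments in CPM (log axis) in the 12 libraries, by group, with each point a library and each bar the group mean. IGHV4-39, IGKV3-20, IGHJ5, IGHJ4 and IGKJ1 stay within a narrow band, and IGHJ3 lies somewhat lower with IgM. IGHV1-69, IGKV5-2, IGKV4-1 and IGLV6-57 lie much lower with IgM, IGLV6-57 at 0.318 against 15.8 CPM in WT.

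Several variable segments unlike the leading ones fell many fold. IGLV6-57 (chr22:22195713-22196460), which held 71.2% of lambda variable reads, stood at 15.8, 15.1 and 16.6 CPM in WT untreated, 0.419, 0.216 and 0.319 CPM in WT with IgM, 24.1, 24.2 and 24.6 CPM in Y691F untreated and 1.17, 1.02 and 0.823 CPM in Y691F with IgM. Its untreated and IgM libraries were far apart. It fell 49.3-fold in WT, -5.62 (SE 0.18, adjusted p = 7.64e-46), and 23.9-fold in Y691F, -4.58 (SE 0.13, adjusted p = 2.41e-50). IGHV1-69 (chr14:106714684-106715181) stood at 5.88, 6.76 and 6.13 CPM in WT untreated, 0.837, 0.647 and 0.382 CPM in WT with IgM, 13.1, 13.9 and 14.9 CPM in Y691F untreated and 1.28, 1.77 and 1.71 CPM in Y691F with IgM, again with no overlap. Its log2 change was -3.31 (SE 0.20, adjusted p = 9.82e-27) in WT and -3.13 (SE 0.14, adjusted p = 2.15e-36) in Y691F. IGHV1-69-2 changed by -3.26 and -3.62 (adjusted p = 5.73e-19 and 1.52e-27). It passed the filter only through untreated libraries, so its direction was set by the choice of tested genes.

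In the kappa locus, IGKV4-1 and IGKV5-2 (chr2:88885397-88886153 and chr2:88897232-88897784, plus strand) lie next to the joining segments and in the opposite orientation to IGKV3-20. IGKV5-2 stood at 8.0, 8.27 and 8.14 CPM in WT untreated, 1.73, 1.24 and 0.892 CPM in WT with IgM, 9.51, 8.43 and 10.3 CPM in Y691F untreated and 3.50, 3.27 and 3.10 CPM in Y691F with IgM, and its IgM libraries lay below all untreated ones. Its log2 change was -2.65 (SE 0.16, adjusted p = 1.18e-26) in WT and -1.51 (SE 0.12, adjusted p = 2.44e-19) in Y691F. IGKV4-1 fell from 5.16 ± 0.181 to 0.761 ± 0.254 CPM in WT, -2.74 (SE 0.21, adjusted p = 3.82e-21), and from 6.16 ± 0.731 to 1.53 ± 0.489 CPM in Y691F, -1.99 (SE 0.17, adjusted p = 1.03e-18).

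The weaker lambda variable segments had few or no reads with IgM. IGLV1-40 was lower with IgM by 84.0-fold (95% interval 14.7 to 3353, from 97 and 1 reads) in WT and by 75.7-fold (95% interval 13.2 to 3025, from 88 and 1 reads) in Y691F. IGLV1-47 had 69 reads in WT untreated and none in WT with IgM, at least 19.9-fold lower against 3 counts over the group, and was 63.7-fold (95% interval 11.1 to 2549, from 74 and 1 reads) lower in Y691F. Intervals and bounds of this kind cover counting error only. Lambda constant genes were lower too. IGLC2 stood at 15.1, 10.6 and 12.3 CPM in WT untreated, 4.43, 3.83 and 5.67 CPM in WT with IgM, 12.1, 12.8 and 15 CPM in Y691F untreated and 5.22, 4.66 and 4.43 CPM in Y691F with IgM, with no overlap between IgM and untreated. The IGLC2 change was -1.45 (SE 0.13, adjusted p = 4.00e-14) in WT and -1.47 (SE 0.12, adjusted p = 8.43e-15) in Y691F, while IGLC3 changed by -2.03 and -1.54 and IGLC7 by -1.89 and -1.24. Of the 6 tested lambda variable segments, 5 passed the filter only through untreated libraries, so their direction was set by the choice of tested genes. IGLV6-57 was the exception. The constant gene IGLC7 also passed the filter only through untreated libraries. Summed, lambda variable counts went from 23.5 ± 0.619 to 0.859 ± 0.0829 CPM in WT and from 32.2 ± 0.333 to 1.97 ± 0.129 CPM in Y691F.

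Summed by family, the IGHV1 segments went from 9.80 ± 0.377 to 1.01 ± 0.447 CPM in WT and from 20.4 ± 0.677 to 2.09 ± 0.147 CPM in Y691F, a log2 change of -3.26 (SE 0.16, adjusted p = 3.36e-32) and -3.28 (SE 0.12, adjusted p = 4.26e-42). The IGHV3 family, the largest of the heavy chain locus, changed by -2.35 and -2.51, and the IGHV4 family, which holds IGHV4-39, by -0.26 and -0.29. In the kappa locus the IGKV1 family changed by -2.59 and -1.92 and IGKV2 by -4.58 and -2.78, all called. The IGKV2 sum passed the filter only through untreated libraries, so its direction was set by the choice of tested sums. The IGKV3 family, which holds IGKV3-20, was not called at -0.04 and 0.00. Within the IGHV4 family, IGHV4-59 changed by -0.50 (SE 0.06, adjusted p = 2.22e-11) in WT and -0.46 (SE 0.06, adjusted p = 1.22e-10) in Y691F, and IGHV4-28 and IGHV4-61 by -0.75 and -0.44 in WT and -0.70 and -0.56 in Y691F.

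As shares, IGHV4-39 held 92.1% ± 0.247 of heavy chain variable counts in WT untreated and 94.4% ± 0.215 in WT with IgM, and 92.2% ± 0.323 and 94.7% ± 0.221 in Y691F. IGHM held 99.2% ± 0.0110 of heavy chain constant counts in WT untreated and 99.4% ± 0.0117 in WT with IgM, and 99.3% ± 0.00574 and 99.6% ± 0.00682 in Y691F. IGLV6-57 held 67.5% ± 2.33 of lambda variable counts in WT untreated and 37.3% ± 12.2 in WT with IgM. It had only 7, 4 and 5 reads in the libraries of WT with IgM, so its share there is imprecise. For the IGHV4-39, IGHM and IGLV6-57 shares the exact 2-sided permutation p of the change with IgM in WT was 0.1, the smallest possible. Joining segments summed by locus changed with IgM by -0.34 (SE 0.04, adjusted p = 1.57e-13) in WT and -0.41 (SE 0.03, adjusted p = 1.69e-17) in Y691F for the heavy chain. The kappa joining sum was not called, at -0.01 and 0.03. The lambda joining sum, of 104 reads in all, changed by -1.06 (SE 0.44, adjusted p = 0.0265) and -1.09 (SE 0.41, adjusted p = 0.0144), both lost with the DESeq2 Wald test (adjusted p = 0.0778 and 0.0606). This sum passed the filter only through untreated libraries, so its direction was set by the choice of tested sums. IGKJ3 had no read in WT untreated and 11 in WT with IgM, at least 4.23-fold higher.

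Since the filter chose which weak segments could be tested, the segments were also summed by identity to the leading segment with untested ones included, as levels with no test. The 41 heavy chain segments under 80% identity to IGHV4-39 summed to 13.2 ± 0.489 CPM in WT untreated and 1.49 ± 0.612 in WT with IgM, and to 25.0 ± 1.12 and 2.83 ± 0.291 in Y691F. IGHV1-69 alone stood at 6.26 ± 0.453 CPM in WT untreated. The 6 segments at 90% to 100% identity summed to 85.4 ± 4.40 and 57.3 ± 2.09 CPM in WT and to 88.7 ± 4.57 and 59.9 ± 2.44 in Y691F. In the kappa locus the 37 segments under 80% identity to IGKV3-20 summed to 20.6 ± 0.202 CPM in WT untreated and 2.91 ± 0.793 in WT with IgM, and to 23.5 ± 1.62 and 6.43 ± 1.06 in Y691F. The 8 close copies summed to 310.3 ± 8.81 and 299 ± 9.02 CPM in WT and to 403 ± 16.7 and 407 ± 5.99 in Y691F. Each sum under 80% identity was lower with IgM in all libraries of a form.

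**Figure D4:**
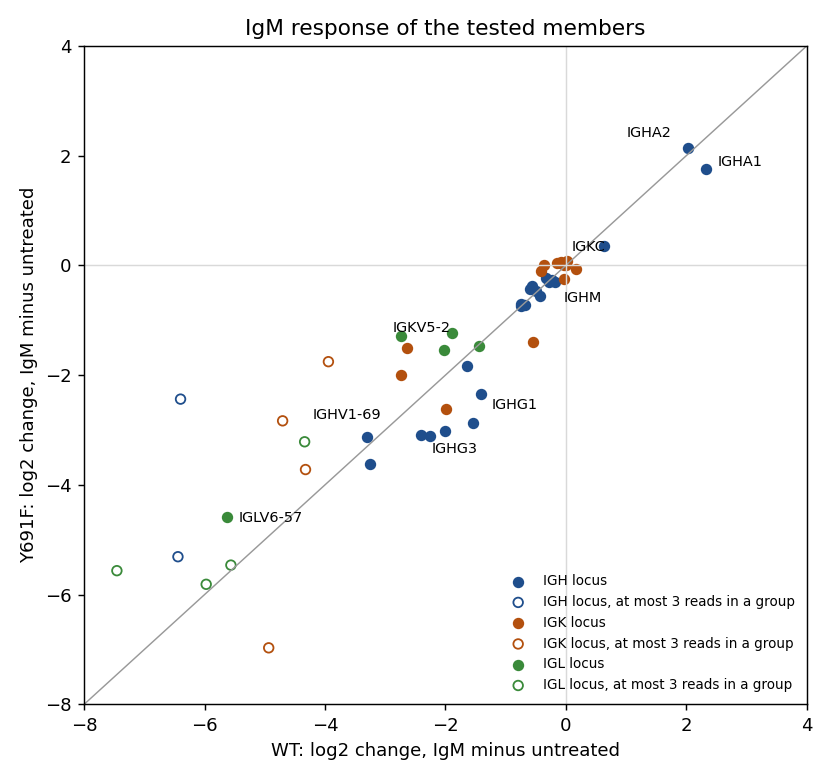
Log2 change with IgM in Y691F against that in WT for each tested member, coloured by locus, with open symbols for members that had at most 3 reads in a group, whose fitted change is no exact size. IGHA1 (2.33 in WT, 1.75 in Y691F) and IGHA2 lie at the upper right, the kappa members with many reads near 0, and lambda variable segments such as IGLV6-57 (-5.62, -4.58) at the lower left.

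Between the Roquin2 forms, IGKC, IGKJ1, IGKV3-20 and 5 close copies of it were higher in Y691F and IGHD lower, with and without IgM. Of the 17 tested kappa variable segments, 6 were called higher untreated and 9 with IgM. Untreated, 21 of 52 tested members were higher in Y691F, beside 15.1% of all tested genes, and 2 were lower, beside 16.1%. With IgM 20 were higher, beside 21.9%, and 4 were lower, beside 20.2%. The median log2 difference of the tested members was 0.21 untreated and 0.30 with IgM, beside -0.0078 and -0.0049 over all tested genes. IGKC was higher by 0.37 (SE 0.03, adjusted p = 1.26e-18) untreated and by 0.50 (SE 0.03, adjusted p = 3.64e-26) with IgM on the log2 scale, and no Y691F library overlapped a WT library. IGKV3-20 was higher by 0.40 (SE 0.03, adjusted p = 1.42e-21) and 0.43 (SE 0.03, adjusted p = 1.31e-23), and IGKJ1 by 0.40 and 0.45 (adjusted p = 2.31e-15 and 4.24e-17). The 5 close copies of IGKV3-20 that were called, namely IGKV3D-20, IGKV3D-11, IGKV3D-15, IGKV3-7 and IGKV3D-7, were higher by 0.23 to 0.42 untreated and by 0.42 to 0.54 with IgM. Of all 8 tested close copies 3 were not called at either treatment, and the lowest value was 0.15 untreated and -0.70 with IgM. The IGKV3D-7 call untreated was lost without the second WT untreated library (adjusted p = 0.0701).

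The heavy chain genes with the most reads differed by less. IGHM was higher in Y691F by 0.18 (SE 0.03, adjusted p = 1.45e-07) untreated and 0.15 (SE 0.03, adjusted p = 3.04e-06) with IgM, with all libraries of Y691F above those of WT at the same treatment. IGHV4-39 was higher by 0.22 and 0.18 (adjusted p = 1.12e-10 and 2.24e-08), and IGHJ5 by 0.26 and 0.14. IGHJ4 was higher by 0.27 and 0.36.

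IGHD was 2.80-fold lower in Y691F untreated, a log2 difference of -1.48 (SE 0.08, adjusted p = 1.81e-28), and 2.5-fold lower with IgM, -1.32 (SE 0.10, adjusted p = 1.20e-20). The Y691F libraries, at 7.58, 8.17 and 7.75 CPM untreated, did not reach the lowest WT library with IgM at 13.1 CPM. ZNF318, a nuclear protein known to be needed for IgD transcripts to be made, stood at 119 ± 0.893 and 119 ± 3.39 CPM in WT and 85.6 ± 3.76 and 75.0 ± 2.15 CPM in Y691F, untreated and with IgM, a log2 difference between forms of -0.48 and -0.67. Its part in the IGHD difference was not tested.

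IgA constant counts were higher in Y691F. IGHA1 differed by 1.19 (SE 0.13, adjusted p = 7.31e-13) untreated and 0.61 (SE 0.08, adjusted p = 8.03e-11) with IgM. IGHA2 differed by 0.88 (SE 0.34, adjusted p = 0.0370) untreated, a call lost with the DESeq2 Wald test (adjusted p = 0.0876), without the filter and without any 1 of 5 of the 6 untreated libraries, and by 1.0 (SE 0.18, adjusted p = 3.80e-06) with IgM. The IgG constant genes did not move as one. IGHG1 was lower in Y691F, with -0.46 (SE 0.08, adjusted p = 1.33e-06) untreated and -1.40 (SE 0.15, adjusted p = 1.47e-13) with IgM. IGHG2 was not called, at 0.08 and -0.76. IGHG3 was higher untreated, 0.30 (SE 0.05, adjusted p = 3.11e-06), and lower with IgM, -0.38 (SE 0.12, adjusted p = 0.00651), the latter not called without the first WT library with IgM (adjusted p = 0.0724). IGHG4 had the same signs, 0.33 (SE 0.11, adjusted p = 0.0164) and -0.68 (SE 0.26, adjusted p = 0.0283), with overlapping libraries, and both calls were lost with the DESeq2 Wald test (adjusted p = 0.135 and 0.0508). The 4 genes summed differed by 0.13 (SE 0.04, adjusted p = 0.0216) untreated, not called when any 1 of 4 libraries was left out, and by -0.78 (SE 0.09, adjusted p = 5.01e-12) with IgM.

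Of the variable segments unlike the leading ones, IGLV6-57 was higher in Y691F by 0.62 (SE 0.07, adjusted p = 1.76e-12) untreated and 1.66 (SE 0.36, adjusted p = 7.53e-05) with IgM. IGHV1-69 was higher by 1.15 (SE 0.10, adjusted p = 1.10e-17) and 1.32 (SE 0.28, adjusted p = 6.62e-05), and its near neighbour in sequence IGHV1-69-2 by 0.90 (SE 0.13, adjusted p = 4.24e-08) untreated. With IgM the IGHV1-69-2 libraries overlapped, 0.53 (SE 0.44, adjusted p = 0.345). IGKV5-2 and IGKV4-1 were not called untreated, at 0.21 and 0.25, and were higher with IgM by 1.34 (SE 0.20, adjusted p = 2.92e-08) and 1.01 (SE 0.28, adjusted p = 0.00216). The IGKV4-1 call with IgM was lost without the second Y691F library with IgM (log2 0.71, adjusted p = 0.0762). IGLV3-1 was called with IgM, 1.5 (SE 0.59, adjusted p = 0.0321), but not with the DESeq2 Wald test (adjusted p = 0.0713), and IGHV3-72 untreated, 0.81 (SE 0.32, adjusted p = 0.0414), but not with that test either (adjusted p = 0.241). IGLC2 showed no call at 0.08 (SE 0.10, adjusted p = 0.589) untreated and 0.06 (SE 0.16, adjusted p = 0.811) with IgM.

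**Figure D5:**
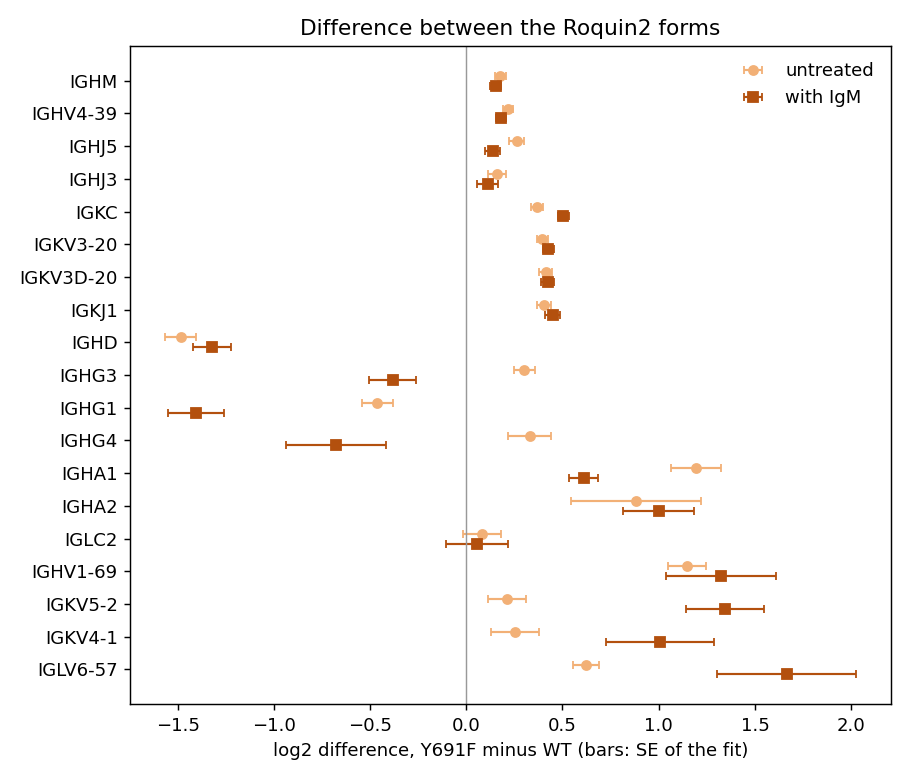
Log2 difference between Y691F and WT for 19 members, untreated and with IgM, with bars for the SE of the fit. IGHD lies on the negative side at both treatments (-1.48 and -1.32) and IGKC on the positive side (0.37 and 0.50). IGHG3, IGHG1 and IGHG4 lie further to the left with IgM than untreated.

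The IgM response itself differed between the forms for 8 of 52 tested members, by the test of the difference (the interaction). In 4 the change was more positive in Y691F, beside 14.7% of all tested genes, and in 4 more negative, beside 11.0%. The fall of the IgG constant genes was larger in Y691F: the difference was -0.94 (SE 0.17, adjusted p = 5.63e-06) for IGHG1, -0.69 (SE 0.13, adjusted p = 1.96e-05) for IGHG3 and -1.01 (SE 0.28, adjusted p = 0.00412) for IGHG4. The rise of IGHA1 was smaller in Y691F, -0.58 (SE 0.15, adjusted p = 0.00187), a call lost without the second WT untreated library (adjusted p = 0.0534). The change was less negative in Y691F for IGKV5-2, 1.13 (SE 0.23, adjusted p = 4.28e-05), IGLV6-57, 1.04 (SE 0.37, adjusted p = 0.0304), and IGKV3D-7, 0.31 (SE 0.10, adjusted p = 0.0122). The IGLV6-57 call was lost with the DESeq2 Wald test (adjusted p = 0.051), without the filter and without any 1 of 4 of the 6 IgM libraries, and the IGKV3D-7 call without the first WT untreated library (log2 0.21, adjusted p = 0.12). IGKC differed by 0.14 (SE 0.04, adjusted p = 0.00730), not called with limma-voom (adjusted p = 0.0911). IGHM, IGHD, IGHV4-39 and IGKV3-20 were not called, at -0.02, 0.16, -0.03 and 0.03.

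Genes whose products pair with immunoglobulin or fold it were counted as well. Of 14 tested partner and assembly genes, 10 were higher and 4 lower with IgM in WT, and 9 were higher and 5 lower in Y691F. Of all tested genes, 38.4% were higher and 38.5% lower in WT, and 37.1% and 38.7% in Y691F. HSPA5, the chaperone BiP that holds free heavy chains, went from 509 ± 10 to 2439.9 ± 121 CPM in WT, a log2 change of 2.26 against 1.95 in Y691F, and the chaperone HSP90B1 changed by 2.76 and 1.96. CD79B, which signals for the receptor, changed by -2.61 and -2.62, and its partner CD79A by 0.53 and 0.74. MZB1, a chaperone of secreted IgM, was higher in Y691F by 0.75 untreated and 1.16 with IgM, and JCHAIN, which links IgM and IgA subunits, by 0.64 and 0.39. Between the forms, 8 of the 14 were higher and 3 lower in Y691F untreated, beside 15.1% and 16.1% of all tested genes. With IgM 7 were higher and 3 lower, beside 21.9% and 20.2%.

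Of 29 transcription factors known to act on the loci, all tested, 10 were higher and 16 lower with IgM in WT, and 13 higher and 15 lower in Y691F. The shares of all tested genes, for each list here, were 38.4% and 38.5% in WT and 37.1% and 38.7% in Y691F. NFKB1 changed by 2.25 and 1.86 and PRDM1, a regulator of plasma cell differentiation, by 2.90 and 3.16. PAX5, IKZF1, ETS1 and BCL6 fell, PAX5 by 1.72 in WT and 1.32 in Y691F. Untreated, 10 were higher and 9 lower in Y691F, beside 15.1% and 16.1% of all tested genes, and with IgM 13 and 9, beside 21.9% and 20.2%. Of 11 genes of the secretory switch and heavy chain RNA processing, 5 were higher and 2 lower with IgM in WT, and 7 and 2 in Y691F. Between the forms 3 were higher and 3 lower at each treatment, beside 15.1% and 16.1% of all tested genes untreated and 21.9% and 20.2% with IgM. Of 15 tested genes of recombination, switching and mutation, 5 were higher and 10 lower with IgM in WT, and 6 and 8 in Y691F.

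Defining B cell markers were present, with MS4A1 (CD20) at 867 ± 23.3 CPM and CD74 at 2084 ± 36.2 CPM in WT untreated, and of 9 tested markers 2 were higher and 7 lower with IgM in each form. Of all tested genes, 38.4% were higher and 38.5% lower with IgM in WT, and 37.1% and 38.7% in Y691F. All 8 plasma cell markers were tested; with IgM 5 were higher and 3 lower in WT, and 4 and 4 in Y691F. All 8 were higher in Y691F than in WT untreated, beside 15.1% of all tested genes, and 6 with IgM, beside 21.9%. Of 14 T and NK cell markers, 4 were at 0 in all libraries, among them CD3D and NKG7, and 5 were tested. Their summed level was 17.4 to 152 CPM and moved with IgM: 3 of the 5 rose in WT and 4 in Y691F. TRBC2, a T cell receptor constant gene, stood at 6.78 ± 0.281 and 65.4 ± 3.91 CPM in WT and 24.5 ± 0.585 and 99.9 ± 4.32 CPM in Y691F. Of 10 myeloid markers 3 were at 0 and the sum was 1.17 to 2.09 CPM. The part of these changes in the immunoglobulin results was not tested.

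Outside the loci, the 5 tested genes whose log2-CPM followed IGHM most closely over the 12 libraries were SH2D3C, MGLL, ARHGEF6, KIAA0226L and CMB9-22P13.1, with Pearson's r from 0.982 to 0.986, as a description of libraries that share their treatments. SH2D3C, the nearest, stood at 72.6 ± 3.78 CPM in WT untreated, 19.9 ± 0.916 in WT with IgM, 133 ± 3.65 in Y691F untreated and 35.5 ± 1.22 in Y691F with IgM. The same groups were high and low as for IGHM, with a wider range.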

How the data were processed

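RNA-seq of polyA+ RNA used a strand-marking dUTP library preparation, per the labels' protocols, in 4 groups of 3 libraries that the submitters call independent biological replicates. The authors deposited a read count per gene and library, and RPKM values (counts scaled by gene length and depth) beside them, per the file headers. The submitters' processing notes name STAR 2.5.0b, DESeq2 and GRCh38. The annotation release, the read counter and its use of strand and of reads with several matches were not given in the sources used here. These settings decide how reads of near-identical segments are split or lost. Reads that carry hypermutation or span a junction of segments may also be lost.

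All 12 columns of counts were mapped to samples, with 0 columns left unmapped. Of 60675 genes, 15112 passed edgeR's filterByExpr. They were fitted with the quasi-likelihood test of edgeR 4.0.16 (R 4.3.3, TMM scaling, robust fit, 1 coefficient per group, no covariate) in 5 contrasts, each adjusted over all tested genes; p is 2-sided. The SE was taken as the absolute log2 change over the root of the F statistic. Sums over classes and families replaced their members in separate fits. Folds against a group without reads are bounds against 3 counts over the group, and ratios with 1 to 3 reads have a 95% interval, for counting error only. Shares were compared with exact permutation tests. RPKM served only to compare levels between genes. The fit was tested on simulated data.

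The named members were all constant genes, the 5 variable, diversity and joining segments of each locus with the most reads, and other called members of at least 1 CPM in a group: 49 in all. The 142 others held 661 reads or fewer each, and 12 of them were tested. The members and the gene lists were chosen with earlier results of these data known. Reference sequences were read from GRCh38 with GENCODE release 29, in which 190 of 191 members were matched by identifier and 167 had the same start and end. Alternatives were DESeq2 1.42.0 (size factors, Wald test), limma-voom (limma 3.58.1), library totals, immunoglobulin genes left out of the scaling, no filter, 5 CPM in 3 libraries, the replicate number as a block, and leaving out each library.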

Additional observations from a re-analysis of the deposited data

Results flagged for a closer look

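The change with IgM differed between the Roquin2 forms, by the test of the difference, for 8 of 52 tested members. It was more positive in Y691F for 4, beside 14.7% of all tested genes, and more negative for 4, beside 11.0%. As Y691F minus WT on the log2 scale it was 0.14 for IGKC, 1.13 for IGKV5-2, 1.04 for IGLV6-57 and 0.31 for IGKV3D-7, and -1.01 for IGHG4, -0.94 for IGHG1, -0.69 for IGHG3 and -0.58 for IGHA1. The sums over classes gave -0.90 for IGHG1 to IGHG4, -0.50 for IGHA1 and IGHA2, 0.72 for the lambda variable segments and 0.14 for IGKC.

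Outside the members, the pseudogene IGHV5-78 was higher in Y691F than in WT with IgM by 0.92 (SE 0.27, adjusted p = 0.00378), at 1.5 ± 0.153 against 0.787 ± 0.278 CPM.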

How the results depend on the processing

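With library totals in place of TMM, the change with IgM in Y691F turned to -0.11 for IGKC (gene and class sum), -0.14 for IGKJ1 and the kappa joining sum, -0.17 for IGKV3-20, -0.16 for IGKV3D-20, -0.097 for IGKV3D-11, -0.13 for IGKV3D-15 and -0.12 for IGKV3-7, and in WT to -0.11 for IGKV3D-11. The kappa joining sum became -0.14 and the kappa variable sum -0.19 in WT, and the latter -0.18 in Y691F, all now called. The IGKC sum in Y691F was called at 0.065 with DESeq2 size factors and 0.067 without a filter. With the DESeq2 Wald test, calls were lost for the IgG sum between untreated forms (0.13) and the lambda joining sum with IgM (-1.08 in WT, -1.10 in Y691F; -1.05 in WT without a filter). With limma-voom, calls were lost for the IGKC sum with IgM in WT (-0.080) and its interaction (0.14), and the kappa variable sum in WT was called (-0.054). With the filter of 5 CPM fewer members were tested: 1 was higher and 23 lower with IgM in WT, 1 and 19 in Y691F, and the kappa variable sum was called (-0.097 and -0.064). The shares of all tested genes called under this filter were not computed, so these member counts have no background beside them.

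As shares of RPKM, the kappa share differed by 0.172 (forms with IgM), 0.453 (forms untreated), 1.27 (IgM in WT) and 0.994 (IgM in Y691F) percentage points, and with pseudogenes and IGLL5 added by 0.559, 2.09, 5.29 and 3.75. The IGHM share gave 0.0530, 0.0741, 0.246 and 0.225 by RPKM, and 0.297 and 0.272 for both IgM responses with pseudogenes added. With them added, the IGHV4-39 share gave 3.24 and 3.47 for the IgM responses, and the IGLC2 share 0.696 between untreated forms and 0.764 for IgM in WT.

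When each library was left out in turn, the IGHJ sum interaction ran from -0.13 to -0.036 (called without WT untreated replicate 1), that of IGHA from -0.67 to -0.35 (lost without WT untreated replicate 2) and that of the lambda variable sum from 0.65 to 0.78 (lost without replicate 3 of WT or Y691F with IgM). The IgG sum between untreated forms ran from 0.11 to 0.16 (lost without replicate 2 or 3 of WT, or 1 or 2 of Y691F). With IgM in WT, the kappa variable sum ran from -0.064 to -0.030 (called without replicate 2 or 3 of Y691F with IgM), IGKC from -0.088 to -0.061 (lost without WT untreated replicate 1 or WT IgM replicate 2) and the lambda joining sum from -1.47 to -0.76 (lost without replicate 2 or 3 of either WT group). In Y691F, IGKC ran from 0.023 to 0.098 (called without replicate 2 of either group) and the lambda joining sum from -1.25 to -0.99 (lost without Y691F IgM replicate 2). Members called higher with IgM in Y691F numbered 2 to 4 (4 without Y691F untreated replicate 2), members with a higher response in Y691F 3 to 8 (8 without Y691F IgM replicate 3), and members lower in Y691F with IgM 2 to 4 (2 without WT IgM replicate 1). The shares of all tested genes called in these fits were not computed.

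Libraries that share a replicate number did not deviate together: the correlations of their deviations ran from -0.0621 to 0.0302 over 18 pairs, 0 were above 0.1, and 1 of 12 libraries correlated best with its own number. With the replicate number as a block, the members called higher and lower numbered 19 and 4 between forms with IgM, 20 and 2 between untreated forms, 3 and 38 for IgM in WT, 2 and 36 for IgM in Y691F, and 4 and 4 in the interaction. The shares of all tested genes called in the blocked fit were not computed. The tested members again include the 20 that reached the filter only in untreated libraries. Among the named members the only call the block changed was IGHV3-72 between untreated forms (0.79, adjusted p = 0.0523), and 1 member outside them was no longer called between forms with IgM. Depth limits the members with few reads: 69 had no read, and only 52 of the other 122 were tested.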

Other observations

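Of 218 immunoglobulin rows outside the members, mostly pseudogenes, 59 had counts and 6 were tested. The pseudogene IGHV4-55 held 6638 reads, against 6462 for IGHV4-59, and stood at 35.1 ± 1.54 CPM in WT untreated, 22.7 ± 0.671 in WT with IgM, 36.8 ± 2.56 in Y691F untreated and 22.4 ± 1.33 in Y691F with IgM. It changed with IgM by -0.63 (SE 0.06, adjusted p = 6.58e-16) in WT and -0.72 (SE 0.06, adjusted p = 7.05e-19) in Y691F. IGHV5-78 changed by -3.27 (SE 0.18, adjusted p = 3.63e-29) and -2.60 (SE 0.15, adjusted p = 3.45e-28), and IGKV2-29 by -3.73 (SE 0.27, adjusted p = 1.10e-22) and -3.34 (SE 0.25, adjusted p = 1.77e-21). IGKV2-29 passed the filter only through untreated libraries, so its direction was set by the choice of tested genes. IGHGP, the IgG pseudogene of the constant cluster, changed by -1.51 (SE 0.26, adjusted p = 2.46e-07) and -2.21 (SE 0.29, adjusted p = 9.68e-11), in the direction of IGHG1 to IGHG4. IGLC5 changed by -1.41 (SE 0.28, adjusted p = 4.55e-06) and -1.31 (SE 0.31, adjusted p = 8.94e-05).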
